A study of Mus musculus with 5 samples.

Results

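BRG1 chromatin immunoprecipitation (ChIP-seq) of oxLDL-treated Baf60a knockout macrophages gave a set of peaks with no counterpart in oxLDL-treated wild-type macrophages, and these peaks are described here. They are the peaks of the oxLDL KO list that share no base with any peak of the oxLDL WT list, called oxLDL KO-only peaks below. The rule left out chromosome 9 before 3.1 Mb, a stretch that holds 29 peaks of the oxLDL KO list, and it took 1885 of the 4639 remaining peaks (40.6%), out of 14951 peaks in all 4 lists of the series. The peaks were chosen by this measured overlap, so their absence from the oxLDL WT list is their definition and was not tested.

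The series used bone marrow-derived macrophages (BMDM), primary cells grown from mouse bone marrow. The groups were Baf60a knockout cells given oxidised low-density lipoprotein (oxLDL KO), wild-type cells given oxLDL (oxLDL WT), knockout cells without oxLDL (KO) and wild-type cells without oxLDL (WT), each with 1 BRG1 library and 1 peak list. The sources used here do not give the promoter or Cre behind the knockout, the age of the mice, or the dose and duration of oxLDL. With 1 library per group the spread between replicates is unknown, no p-value is given, and all intervals are 95% intervals (Wilson for shares, Newcombe for differences of shares) that cover counting error only.

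BRG1, the product of Smarca4, drives SWI/SNF complexes with energy from ATP, so that they slide or evict nucleosomes at promoters and enhancers. BAF60a, the product of Smarcd1, is a subunit through which these complexes meet transcription factors. SWI/SNF complexes are known in macrophages for opening chromatin at inducible inflammatory genes, and macrophages that take up oxLDL load lipid and become foam cells.

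Only 17 promoter windows, of 17 genes, lay wholly inside an oxLDL KO-only peak. The windows run from 250 bp before to 50 bp after a transcription start, and the sequences are those of RefSeq on GRCm38.p6, the assembly of mm10. The 5 windows under the peaks with the highest fold enrichment are shown, 5′ to 3′ on the gene's strand, because they are the promoter sequences that oxLDL KO-only peaks cover completely. Capitals mark every match, on either strand, to 10 short motifs, whose letters are given where their counts are reported below.
Gtf2a1: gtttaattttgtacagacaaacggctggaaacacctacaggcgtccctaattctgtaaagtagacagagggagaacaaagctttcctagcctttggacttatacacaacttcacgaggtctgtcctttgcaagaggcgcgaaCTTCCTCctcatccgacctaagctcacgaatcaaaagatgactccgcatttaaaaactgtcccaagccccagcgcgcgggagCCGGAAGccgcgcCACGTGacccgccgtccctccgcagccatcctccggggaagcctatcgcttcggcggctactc
Zfp512b: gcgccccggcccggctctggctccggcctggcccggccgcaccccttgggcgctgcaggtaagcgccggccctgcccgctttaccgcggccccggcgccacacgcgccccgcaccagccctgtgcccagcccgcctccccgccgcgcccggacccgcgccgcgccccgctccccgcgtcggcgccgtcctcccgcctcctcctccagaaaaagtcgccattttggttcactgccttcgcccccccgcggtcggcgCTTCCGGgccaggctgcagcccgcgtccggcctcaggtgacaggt
Slc29a1: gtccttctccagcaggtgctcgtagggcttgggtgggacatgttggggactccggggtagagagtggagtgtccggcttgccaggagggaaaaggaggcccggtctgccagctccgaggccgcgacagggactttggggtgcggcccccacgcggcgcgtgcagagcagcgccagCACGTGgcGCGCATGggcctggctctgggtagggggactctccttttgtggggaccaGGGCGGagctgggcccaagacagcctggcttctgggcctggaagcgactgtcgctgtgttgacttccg
Zfp148: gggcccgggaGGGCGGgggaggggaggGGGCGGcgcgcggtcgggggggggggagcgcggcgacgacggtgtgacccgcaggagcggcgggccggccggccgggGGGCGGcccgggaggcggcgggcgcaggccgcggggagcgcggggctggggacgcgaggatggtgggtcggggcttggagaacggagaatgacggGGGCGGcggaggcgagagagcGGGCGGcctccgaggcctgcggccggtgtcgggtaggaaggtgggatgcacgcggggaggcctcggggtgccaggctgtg
Gpx4: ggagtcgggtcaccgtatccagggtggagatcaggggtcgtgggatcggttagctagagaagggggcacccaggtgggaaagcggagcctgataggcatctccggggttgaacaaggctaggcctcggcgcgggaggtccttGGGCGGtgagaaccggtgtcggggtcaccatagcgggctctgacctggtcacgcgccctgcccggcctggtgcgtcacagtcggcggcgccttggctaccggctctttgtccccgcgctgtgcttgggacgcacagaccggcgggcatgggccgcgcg

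Gtf2a1, which encodes a subunit of the general transcription factor TFIIA, had its window at chr12:91590438-91590737 on the minus strand, under a peak with a fold enrichment of 5.66. Its window held 1 ETS match, 1 PU.1-type match and 1 E-box, and no GC box. Zfp512b, a zinc finger gene, had its window at chr2:181592412-181592711 on the minus strand, with a fold enrichment of 4.98 and 1 ETS match. Slc29a1, an equilibrative nucleoside transporter gene, had its window at chr17:45595197-45595496 on the minus strand, with a fold enrichment of 4.75, 1 GC box, 1 E-box and 1 NRF1-type motif. Zfp148, which encodes a zinc finger factor that binds GC-rich DNA, had its window at chr16:33381052-33381351 on the plus strand, with a fold enrichment of 4.75 and 5 GC boxes. Gpx4, the glutathione peroxidase that reduces lipid hydroperoxides, had its window at chr10:80053761-80054060 on the plus strand, with a fold enrichment of 4.67 and 1 GC box. In these 5 windows the GC box was the motif with the most matches, and 5 of its 7 matches lay in Zfp148.

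The peak lists held 4668 peaks in oxLDL KO, 9907 in oxLDL WT, 139 in KO and 237 in WT. Fold enrichment is the authors' ratio of fragments at the summit to local background, and the number of fragments at the summit (the pileup) was solved from the deposited values. The lowest background of a list was between 2.70 and 3.84 fragments, and the lowest pileup called at that background was 12 fragments in oxLDL KO, 12 in oxLDL WT, 15 in KO and 12 in WT. Of 12 macrophage marker genes, 8 had a peak within 1 kb of a gene end in oxLDL KO and 12 in oxLDL WT. None of the 3 hepatocyte, 3 neuron and 3 stromal markers had such a peak in either list, and lymphocyte markers had it for 0 of 4 genes in oxLDL KO and 1 of 4 in oxLDL WT. In the other direction, 7202 of 9879 oxLDL WT peaks (72.9%) shared no base with an oxLDL KO peak, and these are called oxLDL WT-only peaks.

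The oxLDL KO-only peaks were weaker and narrower than the 2754 oxLDL KO peaks that shared bases with oxLDL WT. Their median fold enrichment was 3.62 (quartiles 3.25 and 4.07, range 1.14 to 7.01), against 4.07 in the shared peaks and 3.57 in the oxLDL WT-only peaks. Their median pileup was 16 fragments, against 18 in the shared peaks and 17 in the oxLDL WT-only peaks. The median width was 284 bp, against 337 bp in the shared peaks and 338 bp in the oxLDL WT-only peaks. A wide peak shares a base with another peak more easily, and the part of the rule in the width difference was not tested. A −log10 q of at least 5 was reached by 179 oxLDL KO-only peaks (9.50%), against 714 shared peaks (25.9%) and 1349 oxLDL WT-only peaks (18.7%).

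With the oxLDL KO list cut by fold enrichment into 5 bins of 755 to 1140 peaks (ties kept together), the share of peaks absent from oxLDL WT was 57.6% in the weakest bin, then 48.7%, 41.6%, 32.3% and 17.4% in the strongest. Peaks near the calling limit thus made up much of the set. At the lowest background lay 1167 oxLDL KO-only peaks (61.9%), and 543 of these (46.5%) had a pileup within 3 fragments of the lowest pileup called in oxLDL WT. For 109 of the 1167 (9.34%), which had at least 20 fragments, the exact Poisson lower bound of the pileup was above those 12 fragments. A site absent from the oxLDL WT list may therefore still have had fragments there, below the calling limit.

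**Figure D1:**
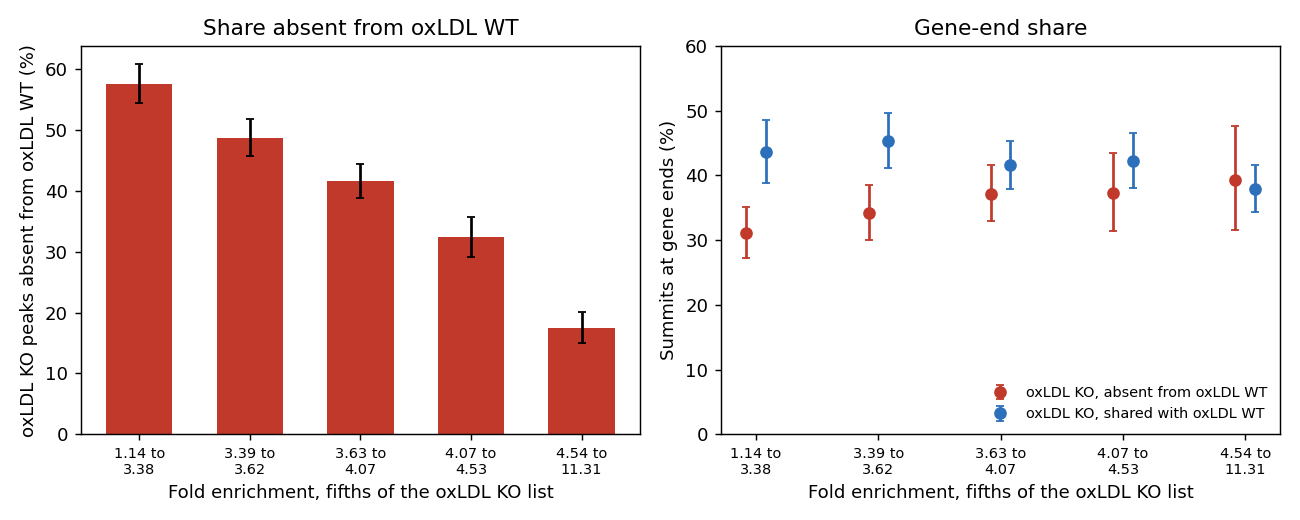
The left panel plots the share of oxLDL KO peaks absent from oxLDL WT (%) by 5 bins of fold enrichment of the oxLDL KO list, and the right panel the share of summits at gene ends (%) for oxLDL KO-only and shared peaks. Error bars are Wilson 95% intervals; the share absent from oxLDL WT was 57.6% in the weakest bin and 17.4% in the strongest, and the gene-end shares of both kinds of peak came closest in the strongest bin (39.3% and 37.9%).

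The strongest oxLDL KO-only peak lay 1 to 20 kb from a gene end and was named by its nearest gene, Raet1d, a ligand of the killer cell receptor NKG2D. It had a fold enrichment of 7.01 and 30 fragments at chr10:22353853-22354324, with the nearest oxLDL WT peak 51386 bp away. Next in that position class were peaks near Zfp263, a zinc finger gene (6.56), and Cox4i1, a subunit of cytochrome c oxidase (5.88). The deepest named peak outside high background was at chr7:59771296-59771736 in the long noncoding RNA gene Snhg14, with 87 fragments over a background of 13.6 and a fold enrichment of 6.02. It lay over 20 kb from any protein-coding gene, 2561 bp from an oxLDL WT peak with a fold enrichment of 1.95, and overlapped a peak of the KO list.

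Position relative to protein-coding genes was set by the summit and by the outer ends of each gene. A start site deeper within a gene therefore counts as inside it. Of the oxLDL KO-only peaks, 656 (34.8%, 32.7 to 37.0) lay within 1 kb of either end of a gene and 696 (36.9%, 34.8 to 39.1) lay deeper inside a gene. A further 237 (12.6%, 11.2 to 14.1) lay 1 to 20 kb from a gene and 296 (15.7%, 14.1 to 17.4) farther than 20 kb. Gene ends take up 3.1% of the bases of the same chromosomes, gene bodies 39.2%, the 1 to 20 kb zone 13.9% and the rest 43.8%. So the peaks were concentrated at gene ends relative to base content, near the base share inside genes and in the 1 to 20 kb zone, and sparse far from genes.

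Against the shared peaks, of which 41.8% were at gene ends and 8.32% over 20 kb away, the gene-end share of the oxLDL KO-only peaks was lower, with a difference of -7.03 percentage points (-9.84 to -4.18). The share over 20 kb from a gene was higher by 7.39 points (5.47 to 9.36). The shares inside genes differed by -1.64 points (-4.46 to 1.21) and those at 1 to 20 kb by 1.28 points (-0.603 to 3.22), and both intervals include 0. Against the oxLDL WT-only peaks, of which 29.0% were at gene ends, the gene-end share was higher by 5.82 points (3.46 to 8.24), and the share inside genes, 43.0% in oxLDL WT-only peaks, differed by -6.11 points (-8.54 to -3.63). The share over 20 kb from a gene was higher by 3.1 points (1.34 to 4.96) than the 12.6% of oxLDL WT-only peaks. The oxLDL KO-only peaks thus lay between the other sets in their gene-end share and had the highest share of distant sites of the 3 sets.

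Turned round, oxLDL KO-only peaks made up 36.3% of the oxLDL KO peaks at gene ends, 39.6% inside genes, 43.2% at 1 to 20 kb and 56.4% (52.1 to 60.6) over 20 kb away. Within the bins of fold enrichment, the gene-end share was 31.0%, 34.2%, 37.1%, 37.3% and 39.3% in oxLDL KO-only peaks from the weakest to the strongest bin, against 43.7%, 45.4%, 41.6%, 42.3% and 37.9% in shared peaks. It was lower in oxLDL KO-only peaks in 4 of the 5 bins, and the intervals of both kinds of peak overlapped in the 3 strongest bins. Split by pileup instead, without high background, the gene-end share was 42.6% in oxLDL KO-only and 44.5% in shared peaks of 20 to 23 fragments, but 21.9% (13.5 to 33.4) in the 64 oxLDL KO-only peaks and 33.9% (28.3 to 39.9) in the shared peaks of 24 or more. The share over 20 kb away was higher in oxLDL KO-only peaks in every bin of fold enrichment, at 20.2%, 16.3%, 12.2%, 11.9% and 15%, against 11.9%, 6.37%, 7.36%, 7.63% and 9.17% in shared peaks. Here too the intervals of both kinds of peak overlapped in the 3 strongest bins. By chromosome, the share of oxLDL KO peaks absent from oxLDL WT ran from 34.1% on chromosome 3 to 48.8% on chromosome 13.

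**Figure D2:**
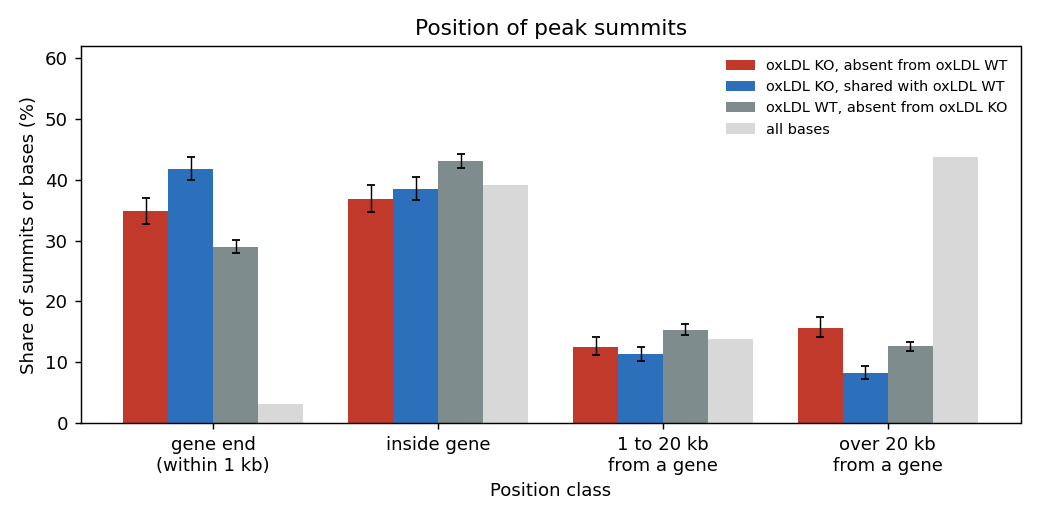
The share of summits (%) in each position class is plotted for oxLDL KO-only peaks, shared oxLDL KO peaks and oxLDL WT-only peaks, with Wilson 95% intervals, beside the share of all bases. At gene ends the oxLDL KO-only bar (34.8%) stands between the shared (41.8%) and oxLDL WT-only bars (29.0%), and over 20 kb from a gene it is the highest of the 3 (15.7%, 8.32% and 12.6%).

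Among gene-end peaks, the highest fold enrichment was 5.88, reached at Kcna3 and Prr14l among others. Kcna3 encodes the voltage-gated potassium channel Kv1.3, and its peak at chr3:107036255-107036578 lay 152 bp from an oxLDL WT peak with a fold enrichment of 3.57. Ezh1, a histone H3 lysine methyltransferase of Polycomb complexes, had a fold enrichment of 5.66 with 28 fragments, 54904 bp from an oxLDL WT peak. Micu3, of the mitochondrial calcium uptake family, had 5.66 at a distance of 656680 bp, and Herc1, a ubiquitin ligase, had 5.62 at 218900 bp. Inpp5a, an inositol polyphosphate phosphatase, had 5.66, and Ppp1cb, a catalytic subunit of protein phosphatase PP1, had 5.43 at 262652 bp. Of these, Kcna3 was the peak beside an existing oxLDL WT peak, and the others named here with a distance were 54904 bp or farther from any.

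Inside genes, the highest fold enrichment was 6.11 in Ptk2b, the tyrosine kinase PYK2, 5530 bp from an oxLDL WT peak. Abl1, a tyrosine kinase gene, followed with 5.88, and Fabp12, a fatty acid-binding protein gene, with 5.66. Map3k1, a kinase upstream of JNK, had 5.43 at 143 bp from an oxLDL WT peak with a fold enrichment of 5.25. Among the peaks at 1 to 20 kb, Ctss, which encodes the lysosomal protease cathepsin S, had 4.98 at 1110 bp from an oxLDL WT peak.

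Distance to the nearest oxLDL WT peak separated peaks beside an oxLDL WT site from peaks far from any. Within 1 kb, measured between peak edges, lay 510 oxLDL KO-only peaks (27.1%, 25.1 to 29.1), of which 382 (20.3% of all) were within 500 bp. Between 1 and 10 kb lay 373 (19.8%), between 10 and 100 kb 614 (32.6%), and over 100 kb 388 (20.6%, 18.8 to 22.5). The median gap was 13691 bp (quartiles 775 and 71206 bp). Of the bases outside oxLDL WT peaks, 0.717% are within 1 kb of one and 69.4% are over 100 kb away, so the peaks were far more often beside an oxLDL WT peak than bases are, and less often remote.

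For the oxLDL WT-only peaks, measured to the oxLDL KO list, 960 (13.3%) were within 1 kb and 31.6% over 100 kb, with a median gap of 36927 bp. The difference was 13.7 percentage points (11.6 to 15.9) within 1 kb and -11.0 points (-13.1 to -8.84) over 100 kb. The oxLDL WT list is longer than the oxLDL KO list, which shortens gaps measured to it, and the part of list length in this difference was not tested.

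**Figure D3:**
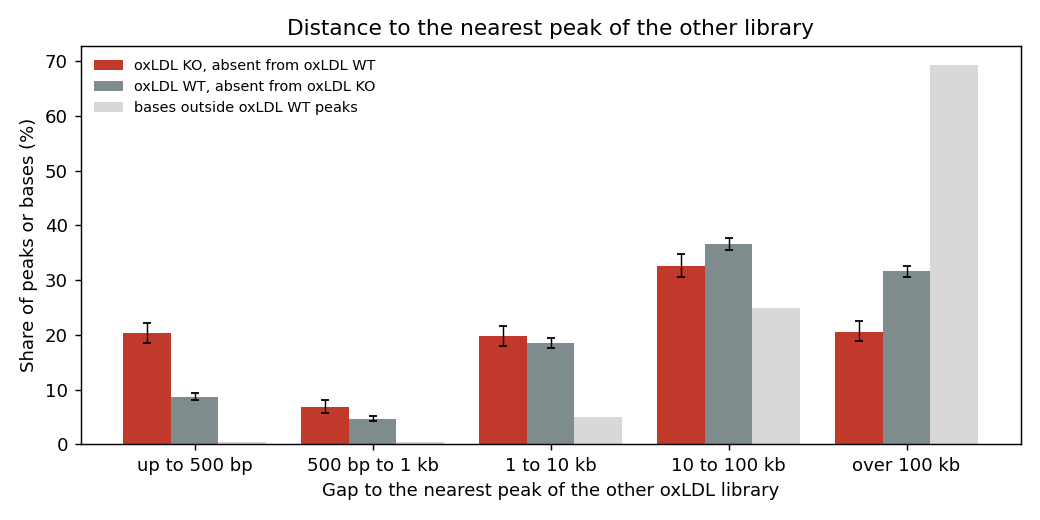
The share (%) of oxLDL KO-only peaks by gap to the nearest oxLDL WT peak is plotted beside the share of oxLDL WT-only peaks by gap to the nearest oxLDL KO peak and the share of bases outside oxLDL WT peaks. Error bars are Wilson 95% intervals; gaps up to 500 bp hold 20.3% of oxLDL KO-only peaks, 8.69% of oxLDL WT-only peaks and 0.380% of bases.

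Gaps within 1 kb clustered in a narrow range. Gaps of at least 200 and under 400 bp held 229 oxLDL KO-only peaks, which is 12.1% of all and 44.9% (40.6 to 49.2) of those within 1 kb, while gaps under 200 bp held 104. The same range held 377 oxLDL WT-only peaks (5.23%). The narrowest oxLDL KO-only peak was 219 bp wide, so these gaps were about as long as a narrow peak.

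**Figure D4:**
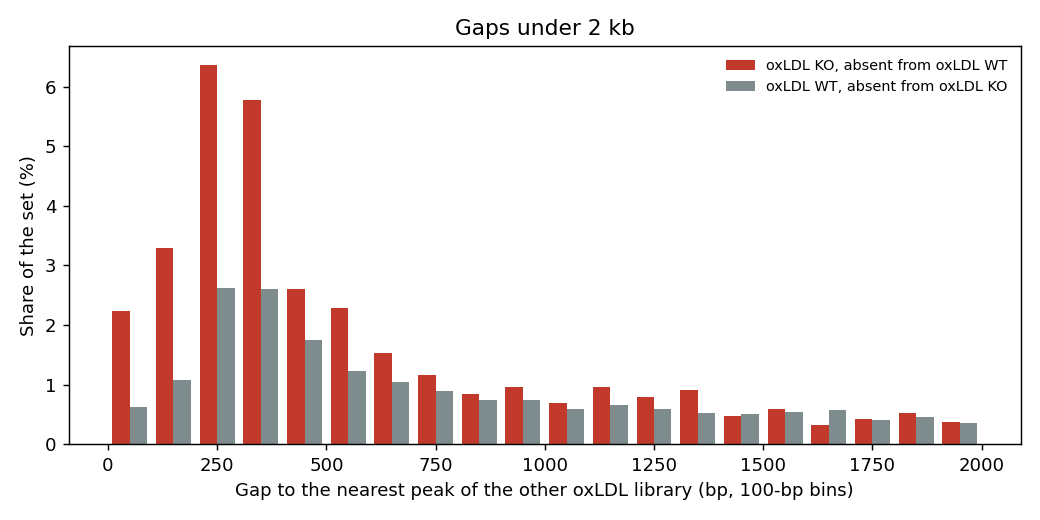
The share of each set (%) is plotted by gap to the nearest peak of the other oxLDL library in 100-bp bins up to 2 kb, for oxLDL KO-only and oxLDL WT-only peaks. Both sets have their highest bins between 200 and 400 bp, where oxLDL KO-only peaks reach 12.1% over both bins and oxLDL WT-only peaks 5.23%.

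The 510 oxLDL KO-only peaks within 1 kb of an oxLDL WT peak had 499 different oxLDL WT neighbours. For 128 of the 510 (25.1%, 21.5 to 29.0) the neighbour also overlapped another oxLDL KO peak, so the oxLDL KO list had a shared peak and an added one at the same site. For 382 (74.9%) the neighbour overlapped no oxLDL KO peak, so the 2 lists held separate peaks there that shared no base. Whether the signal itself was displaced was not tested. From the summits of the 510 peaks, the nearest oxLDL WT summit of any peak was a median of 708.5 bp away (quartiles 546 and 943 bp). For shared oxLDL KO peaks it was 97 bp (38 and 243.75 bp). The rule bears on this contrast, because peaks that share bases tend to have close summits. The median deposited fold enrichment was 3.78 in the oxLDL KO-only peaks and 3.78 in the oxLDL WT neighbours. The median widths were 294 bp and 391.5 bp. The 2 sides come from 2 libraries of unknown depth, and both lists were cut at a calling limit. Equal medians therefore do not show equal BRG1 signal. In 435 of the 510 pairs both summits had the same position class. Where the start site gave a direction, 66 of 145 oxLDL KO-only summits (45.5%, 37.6 to 53.6) lay further downstream than the oxLDL WT summit, so neither direction prevailed.

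Peaks at different distances lay in different places. Within 1 kb of an oxLDL WT peak, 47.3% of oxLDL KO-only peaks were inside genes and 30.4% at gene ends. Over 100 kb away, 21.1% were inside genes, 144 (37.1%) at gene ends and 120 (30.9%) over 20 kb from a gene. The gene-end share was highest at 10 to 100 kb, at 43.3%. Their fold enrichment varied little, with a median of 3.85 within 500 bp, 3.62 in each of the 3 bins between 500 bp and 100 kb, and 3.52 beyond. Of the 179 peaks with a −log10 q of at least 5, 37 lay within 1 kb of an oxLDL WT peak and 99 (55.3%) over 10 kb away, against 53.2% over 10 kb for the whole set.

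The rule's limit is 1 shared base. Just inside it were peaks named by Psd2 (gap 2 bp, fold enrichment 3.25), Gsr (4 bp, 3.32), Nid1 (9 bp, 2.69), Atp2b1 (10 bp, 4.07) and Glg1 (16 bp, 4.30). Just outside it were shared peaks at Rps15a (1 shared base, 5.20), Rassf2 (5 bases, 2.94), Irak2 (5 bases, 3.62), Ubash3b (8 bases, 2.93) and Gmeb1 (12 bases, 3.18). The farthest oxLDL KO-only peak, on chromosome 3 at 3222715 to 3222953, lay 5524550 bp from any oxLDL WT peak with a fold enrichment of 3.71, and a peak in Adgrl3, an adhesion receptor gene, lay 4300377 bp away with 2.89.

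Start sites with a strand were known for 16457 genes. Within 1 kb of a start site lay 611 oxLDL KO-only summits (32.4%), against 40.6% of shared and 26.5% of oxLDL WT-only summits. They included 496 of the 656 gene-end peaks (75.6%) and 115 of the 696 peaks inside genes (16.5%). In shared oxLDL KO peaks these shares were 77.4% and 21.4%. Of the 611, 83.8% (80.7 to 86.5) lay after the start, inside the transcript, at a median of 264 bp from it over all 611. The shared peaks had 82.0% after the start with a median of 278 bp, and the oxLDL WT-only peaks 73.0% (71.0 to 75) with a median of 212 bp. The 100 bp with the most summits were 200 to 300 bp after the start, with 24.4% of oxLDL KO-only start-site summits, 18.1% of shared and 16.6% of oxLDL WT-only ones. The window from 250 bp before to 50 bp after the start held 6.71% of oxLDL KO-only start-site summits, 7.77% of shared and 10.6% of oxLDL WT-only ones. Of the 5 windows printed above, those of Zfp512b, Slc29a1 and Gpx4 held the summit of the covering peak, and those of Gtf2a1 and Zfp148 did not.

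**Figure D5:**
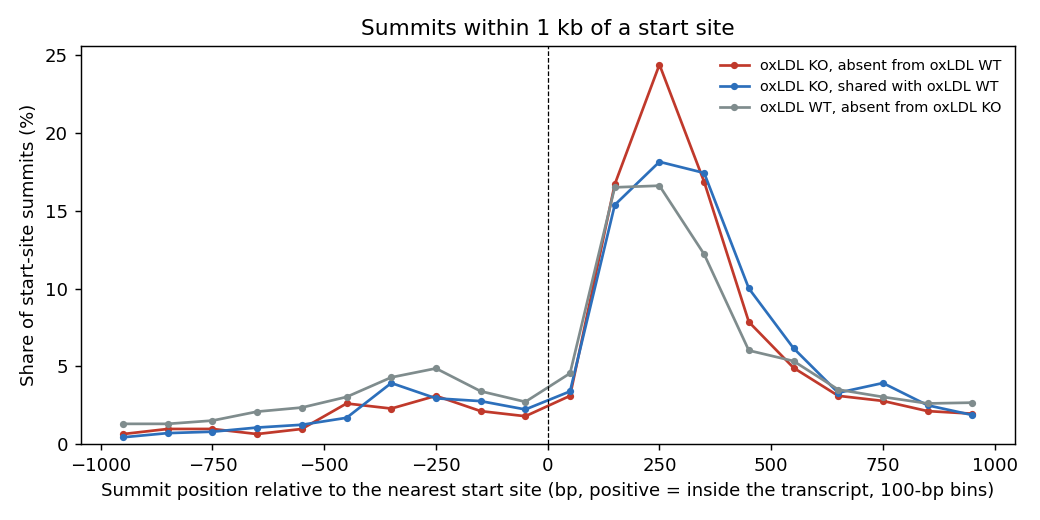
The share of start-site summits (%) is plotted by position relative to the nearest start site in 100-bp bins, positive inside the transcript, for oxLDL KO-only, shared oxLDL KO and oxLDL WT-only peaks. All 3 curves are highest between 100 and 400 bp after the start, and the oxLDL KO-only curve reaches 24.4% at 200 to 300 bp.

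At least 1 base of an oxLDL KO-only peak lay in 178 promoter windows of 166 genes. Their median GC content was 69.5%, against 69.7% under shared peaks, 66.5% under oxLDL WT-only peaks and 57.0% over all 20063 windows, and their median number of CpG dinucleotides was 30.5, against 31, 25.5 and 14. A GC box (GGGCGG) stood in 78.7% (72.1 to 84.0) of the 178 windows, against 74.1% under shared peaks, 70.4% under oxLDL WT-only peaks and 47.0% of all windows. A TATA box (TATAAA) stood in 2.81% of the 178 windows, against 4.49% under shared peaks, 5.53% under oxLDL WT-only peaks and 12.7% of all windows. The CCAAT box stood in 25.3% of the 178, against 22.4% under shared peaks, 29.8% under oxLDL WT-only peaks and 38.1% of all. The AP-1 motif (TGANTCA) was found in 2.81% (1.21 to 6.41) of the 178 windows and in 7.06% of all windows. Under shared peaks it was found in 4.74% of windows, and under oxLDL WT-only peaks in 5.29%. The PU.1-type motif (GAGGAAG) was found in 15.7% of the 178 and in 13.2% of all, and the ETS motif (CCGGAAG), which shares its last letters, in 10.7% of the 178 and in 11.9% of all. The E-box (CACGTG), a palindrome, was found in 8.99% of the 178 windows and in 7.89% of all windows. The NRF1-type motif (GCGCATG) was found in 4.49% of the 178 windows and in 4.84% of all windows. The CRE (TGACGTC) was found in 3.93% of the 178 windows and in 3.92% of all windows. The YY1 motif (AAGATGG) was found in 2.81% of the 178 windows, against 2.74% under shared peaks, 6.01% under oxLDL WT-only peaks and 6.30% of all windows. The windows were thus GC-rich and CpG-rich like those under the other BRG1 peaks, and a match is a description of letters only.

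Of 21887 protein-coding genes, 724 (3.31%) had an oxLDL KO-only peak within 1 kb of an end, and 1305 (5.96%) had one in the gene or within 1 kb. Of the 724, 152 (21.0%) had another peak at a gene end in oxLDL WT, and 119 (16.4%) had oxLDL WT peaks only deeper inside the gene. The other 453 (62.6%, 59.0 to 66.0) had no oxLDL WT peak in the gene or within 1 kb. For 694 of the 724 (95.9%) no shared oxLDL KO peak lay at a gene end. The following groups of genes are read against the 3.31% of all genes, and against the 37.7% of genes with any oxLDL KO gene-end peak (724 of 1918) for which it was an oxLDL KO-only one.

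Of 26 macrophage lineage genes, 3 (11.5%) had an oxLDL KO-only peak at a gene end, of 10 with any oxLDL KO gene-end peak. Spi1, which encodes PU.1, the master factor of the myeloid lineage, had a fold enrichment of 4.10 at 140 bp from an oxLDL WT peak. Its strongest gene-end peaks otherwise were 3.61 among shared oxLDL KO peaks and 5.02 in oxLDL WT. Cebpb, a factor of macrophage activation, had 3.85 in oxLDL KO at 375 bp from an oxLDL WT peak, and 3.36 in oxLDL WT. Lyz2, the macrophage lysozyme, had 3.85 in oxLDL KO at 2559 bp from an oxLDL WT peak, and 3.15 in oxLDL WT. The oxLDL KO-only peaks of both Cebpb and Lyz2 lay at the end of the gene opposite its start. Each of the 3 genes had an oxLDL WT gene-end peak of its own.

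Of 34 genes that take up, export or store lipid, 5 (14.7%) had an oxLDL KO-only gene-end peak, of 11 with any, and 4 of the 5 had no oxLDL WT gene-end peak beside it. Abca1, the transporter that exports cholesterol to apolipoprotein A-I, is at chr4:53030789-53159988 on the minus strand and had no oxLDL WT peak in the gene or within 1 kb. It held 3 oxLDL KO-only peaks, with fold enrichments of 4.98, 3.39 and 2.83 and pileups of 21, 14 and 17 fragments. The peak with 2.83 had its summit 444 bp inside the transcript, 27361 bp from the nearest oxLDL WT peak, and the others lay 38961 bp and 43666 bp inside it. Plin3, a lipid droplet coat protein, held 2 oxLDL KO-only peaks of 3.4 and 2.94, the first 23774 bp from an oxLDL WT peak. Srebf2, the master factor of cholesterol synthesis, had 2.99 at 190283 bp, and Lpl, lipoprotein lipase, had 2.97 at 1726 bp. Fabp5, a fatty acid-binding protein, had 3.17 in oxLDL KO at 249 bp from an oxLDL WT peak of 3.57. Inside genes, Abcg1, a cholesterol exporter to high-density lipoprotein, had 3.62 and Ppard, a lipid-sensing nuclear receptor, had 3.39, both with an oxLDL WT gene-end peak of their own.

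Of 34 inflammatory and NF-κB genes, 2 (5.88%) had an oxLDL KO-only gene-end peak, of 4 with any, and both were strong within the set. Nfkb1, which encodes p105 and the p50 subunit of NF-κB, had 5.52 with 25 fragments at chr3:135691519-135691765, 205532 bp from any oxLDL WT peak. Nlrp3, the sensor of the NLRP3 inflammasome, had 5.20 with 22 fragments, 951 bp from an oxLDL WT peak. Inside genes, Nfkbiz, which encodes the regulator IκBζ, had 4.53 at 1344280 bp from an oxLDL WT peak, and Ccl4, a chemokine gene, had 3.39 at 1036 bp. Of 30 interferon response genes, 2 (6.67%) had one, of 8 with any. They were Stat3 (4.07, at 69050 bp) and Socs1, a feedback inhibitor of cytokine signalling (3.97, at 367 bp).

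Of 31 oxidative stress genes, 3 (9.68%) had an oxLDL KO-only gene-end peak, of 10 with any. Prdx6, a peroxiredoxin, had 3.85, Taldo1, of the pentose phosphate pathway, 3.76, and Gsr, glutathione reductase, 3.32, all within 282 bp of an oxLDL WT peak. Inside genes, Gpx4, whose promoter sequence is printed above, had 4.67 at 1547 bp, and Bach1, a repressor of antioxidant genes, had 4.53 at 310 bp. The Gpx4 peak was at a start site within the gene, so Gpx4 is not counted among the 3 genes. Of 28 genes in the unfolded protein or integrated stress response, 3 (10.7%) had one, of 6 with any. They were the eIF2α kinase genes Eif2ak1 and Eif2ak3 (3.62 each, at 85859 and 10739 bp) and the stress factor gene Atf3 (2.94, at 568 bp). Of 26 AP-1 and immediate early genes, 2 (7.69%) had one, of 9 with any. They were Jdp2, a repressor of AP-1 (5.20, at 239 bp), and Zfp36, which encodes an mRNA decay factor (4.03, at 1166 bp). The Zfp36 peak lay at the end of the gene opposite its start. Jun itself had an oxLDL KO-only peak deeper in the gene, with 3.77 at 99 bp from an oxLDL WT peak, and a gene-end peak of 4.79 in oxLDL WT.

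Of 35 lysosome and autophagy genes, 6 (17.1%, 8.10 to 32.7) had an oxLDL KO-only gene-end peak, of 10 with any. The count was 2 when peaks up to 500 bp apart counted as shared, since 4 of the 6 lay beside an oxLDL WT peak. Ctsb, the protease cathepsin B, had 4.10 at 386 bp from an oxLDL WT peak, and Gabarapl1, an autophagosome protein, had 4.07 at 115 bp. Ctsz, cathepsin Z, had 3.4 in oxLDL KO at 238 bp, beside an oxLDL WT gene-end peak of 6.09. Atp6v1h and Atp6v0d1, subunits of the proton pump that acidifies lysosomes, had 3.53 at 274983 bp and 2.86 at 276 bp. Atg12, of the autophagy conjugation system, had 3.38 at 144716 bp.

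Of 32 mitochondrial biogenesis genes, 4 (12.5%) had an oxLDL KO-only gene-end peak, of 6 with any. Tomm70a, an import receptor of the outer membrane, had 4.53 at 44767 bp, and Pink1, a kinase that starts mitophagy, had 4.30 at 108149 bp. Nrf1, a factor of nuclear genes for respiration, had 3.82 at 374 bp, and Esrra, an orphan nuclear receptor, had 3.39 at 1581 bp. The Esrra peak lay at the end of the gene opposite its start, and was also at an end of Trmt112 and of Prdx5. Of 31 SWI/SNF subunit genes, 2 (6.45%) had one, of 8 with any. They were Bcl7a (3.85) and Smarce1, which encodes BAF57 (2.93), both genes without an oxLDL WT peak. Arid1a and Arid1b, whose products are the large DNA-binding subunits of BAF complexes, had oxLDL KO-only peaks inside the gene, of 3.12 and 3.62.

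Of 34 cell cycle genes, 3 (8.82%) had an oxLDL KO-only gene-end peak, of 8 with any. They were the kinase genes Cdk6 (3.61) and Cdk2 (3.39), and the inhibitor gene Cdkn2c (3.07). Degs1, the dihydroceramide desaturase, was the only one of 27 sphingolipid enzyme genes (3.70%), of 7 with any. It had 4.34 at 219 bp from an oxLDL WT peak of 4.29. Sgms1, a sphingomyelin synthase, had 4.75 inside the gene. Cdk7 (2.94) and Cdk9 (2.86), kinases of RNA polymerase II, were 2 of 31 transcription and RNA processing genes (6.45%), of 3 with any. The hepatocyte, neuron, stromal and lymphocyte lists had 0 of 20 genes each. This allows a share of up to 15% in each (3 counts of 20, the limit used for a count of 0). No gene of these lists had any oxLDL KO gene-end peak, so their count of oxLDL KO-only peaks had to be 0. It therefore sets no contrast with the pathway lists. The 13 pathway lists had shares between 3.70% and 17.1%, beside the 3.31% of all genes, but with 1 to 6 genes a list these counts depended on the limits. When peaks up to 500 bp apart counted as shared, oxidative stress and sphingolipid genes had 0, and with a −log10 q of at least 2 in both lists transcription genes had 0. The lists also held more oxLDL KO gene-end peaks in general, and their share of oxLDL KO gene-end genes with an oxLDL KO-only peak ran from 14.3% (sphingolipid) to 66.7% (mitochondrial and transcription), around the 37.7% of all genes. Among oxLDL KO peaks with a −log10 q of at least 5, the genes with an oxLDL KO-only gene-end peak were 68 in place of 724, and 4 of the list genes were among them: Nfkb1, Nlrp3, Jdp2 and Degs1.

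In 25 genes the gene and the 1 kb around it held 3 or more oxLDL KO-only peaks. Plec, which encodes the cytoskeletal linker plectin, held 5 over 60.4 kb, all within 2702 bp of an oxLDL WT peak and with fold enrichments of 3.18 to 4.30. Sfi1 also held 5, all on high background. Dnmt3a, a DNA methyltransferase, Pik3ap1, an adaptor of PI3-kinase, Ralgds, Nav1, Fkbp15, Gm38510 and Zfp978 held 4 each. Abca1 and Aatk, a kinase gene, held 3 each and were the 2 of the 25 with no oxLDL WT peak in the gene or within 1 kb. The Aatk peaks had fold enrichments of 3.62, 3.07 and 4.75 and lay at least 21683 bp from an oxLDL WT peak. Fkbp15 held 4 beside 1 oxLDL WT peak, with fold enrichments of 3.61 to 4.30. Lrp1, an endocytic receptor for lipoproteins, held 3 beside 7 oxLDL WT peaks. Abl1 held 3, with fold enrichments of 5.88, 4.98 and 3.85, beside 2 oxLDL WT peaks.

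Almost no oxLDL KO-only peak was in the lists of cells without oxLDL. Of the 1885, 14 (0.743%) overlapped a KO peak, 17 (0.902%) a WT peak, 3 both, and 1857 (98.5%) neither. Shared oxLDL KO peaks overlapped a KO peak in 2.0% and a WT peak in 3.96% of cases, and oxLDL WT-only peaks in 0.194% and 0.569%. Read from the short lists, 14 of 111 KO peaks outside the left-out stretch (12.6%) had an oxLDL KO-only peak and 55 (49.5%) a shared one, and of 208 WT peaks 17 (8.17%) and 108 (51.9%). Without high background, 7 (0.379%) oxLDL KO-only peaks overlapped a KO peak and 8 (0.433%) a WT peak. Among the 179 oxLDL KO-only peaks with a −log10 q of at least 5, 7 (3.91%) overlapped a KO peak and 5 (2.79%) a WT peak, and 5 of those 7 and all 5 of those in WT were on high background, which left the Snhg14 site and the Lingo2 peak in KO and 0 in WT. Besides the Snhg14 site, those in KO were in Lingo2 (4.21), in Ralgds (4.07), at Ino80d, a subunit of the INO80 remodelling complex (3.85), nearest to Nenf (3.39) and at sites over 20 kb from genes. Those in WT were in Fndc3b (4.53), at Pnrc1, a nuclear receptor coactivator (4.30), at Pusl1 (3.88), at Cttnbp2nl (3.39), in Gm51573 (3.53), nearest to Vps8 (3.61), and both in and near Ier5, an immediate early gene (3.85 and 4.30). With lists of 139 and 237 peaks, absence from KO and WT says little about a single site.

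High background, over 5 times the lowest of the list, touched 36 oxLDL KO-only peaks (1.91%), with fold enrichments of 1.14 to 2.92. Of these, 5 were in Sfi1, 16 lay over 100 kb from an oxLDL WT peak, 7 overlapped a KO peak and 9 overlapped a WT peak. They made up 7 of the 14 oxLDL KO-only peaks found in KO and 9 of the 17 found in WT.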

How the data were processed

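Bone marrow-derived macrophages were profiled by BRG1 ChIP-seq, with 1 library each for oxLDL KO, oxLDL WT, KO and WT, grouped by sample title. Per the labels' protocols, chromatin was prepared enzymatically (SimpleChIP), precipitated with an Abcam antibody and sequenced as paired ends after NEBNext Ultra II FS library preparation. Tools named in the submitters' processing notes are MACS3, Bowtie2, Trimmomatic 0.33 and bcl2fastq 2.17, with the build mm10. The sources used here give no calling parameters. The input library was not analysed here.

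The authors deposited 1 peak list per library, called per library and not pooled, with a score, a fold enrichment (a ratio), a −log10 p and a −log10 q per peak and a summit offset in bp. These are the authors' own values and were used to describe, filter and rank peaks within a list. Pileup and background were solved from the fold enrichment, taken as (pileup + 1)/(background + 1), and from the Poisson tail behind the p-value. The pileup came out whole, within 0.05 fragments, for 99.98% of peaks in oxLDL KO, 99.96% in oxLDL WT, 98.6% in KO and 99.2% in WT. Peak lists hold no read totals, so depth is unknown beyond the lowest background.

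Overlap meant at least 1 shared base. Gene positions came from RefSeq on GRCm38.p6 (21887 protein-coding genes, with neither exons nor introns), and start sites and strands from 20063 RefSeq promoter windows of 16457 genes, with none on chromosome 18, X or Y. Bases were counted exactly from 3 Mb to the last gene end of chromosomes 1 to 19. All 479 symbols of the 17 gene lists matched. The members and the lists were chosen with earlier results of these data known. Named were the 10 highest fold enrichments per position class outside high background, the nearest, farthest and just-overlapping peaks, peaks found in KO or WT, genes with 3 or more oxLDL KO-only peaks, and list genes with a gene-end peak. Some genes that the rule takes are not reported here. List genes with a peak only inside the gene, and the promoter windows, fall outside this rule and were chosen after their values were seen. A peak took the name of a gene with an end within 1 kb, else the gene holding it, else the nearest within 100 kb, which does not show that it acts on that gene. The solving of pileups and the overlap counts were tested on simulated data. Alternatives were other overlap limits, −log10 q minimums, gene-end windows and leaving out high background. Python 3.11.15, pandas 2.3.3, numpy 2.4.6, scipy 1.17.1, statsmodels 0.14.6 and matplotlib 3.10.9 were used.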

Additional observations from a re-analysis of the deposited data

How the results depend on the processing

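No paired analysis was possible because each group had 1 library and no result came from a test, and no replicate could be left out. The alternatives gave counts and shares only, and the differences between sets of peaks were not recomputed under them. Counts in single gene lists fell to 0 under some alternatives: oxidative stress (3) and sphingolipid (1) when gaps up to 500 bp counted as shared, and transcription (2) with a −log10 q of at least 2 or a gene end of 500 bp. With a −log10 q of at least 5, 10 of the 13 pathway lists had 0. Of 48 values of the main results under an alternative, 27 moved by less than their interval (counts by less than 1.5 times) and 21 moved by more. Of the values of single lists and classes, 96 and 35 did. The 96 include the hepatocyte, neuron, stromal and lymphocyte lists, which stayed at 0 under every setting. They also include the share over 20 kb from a gene under other gene-end windows, which cannot move. The 96 therefore overstate how stable these values were. With a −log10 q of at least 5 in oxLDL KO the set shrank to 179 peaks and 68 genes, the share inside genes was 30.2%, the share within 1 kb of oxLDL WT 20.7%, and the overlap with KO 3.91% and with WT 2.79%, of which 5 of 7 and 5 of 5 peaks were on high background. With a −log10 q of at least 2 in both lists, the gene-end share was 37.8%, within 1 kb 23.9% and over 100 kb 24%. When overlap had to reach 50% of the shorter peak to count as shared, 34.7% lay within 1 kb and 18.4% over 100 kb. When peaks up to 500 bp apart counted as shared, 34.3% lay inside genes, 8.52% within 1 kb and 25.8% over 100 kb. Measured between summits, 21.4% lay within 1 kb. A gene end of 500 bp gave 25.3% at gene ends and 45.0% inside genes, and 2 kb gave 43.2% and 30.0%. Without high background, 0.379% overlapped KO and 0.433% WT. What sets these moves follows from how each alternative was built: stricter or looser limits change which peaks are counted. The lists do not show fragments at sites below the calling limit, which at the lowest background was 12 in both oxLDL lists.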

Other observations

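The 296 oxLDL KO-only peaks over 20 kb from a protein-coding gene were set beside other RefSeq genes. Of these, 90 (30.4%, 25.4 to 35.9) lay in or within 1 kb of another kind of gene, against 88 of 229 shared oxLDL KO peaks (38.4%) and 319 of 908 oxLDL WT-only peaks (35.1%). Long noncoding RNA genes accounted for 74 (25%, 20.4 to 30.2), against 82 shared peaks (35.8%) and 294 oxLDL WT-only peaks (32.4%). Pseudogenes accounted for 12 (4.05%, 2.33 to 6.95), against 2 shared peaks (0.873%) and 11 oxLDL WT-only peaks (1.21%). Peaks on high background were kept in these counts, among them oxLDL KO-only peaks in the pseudogene Gm20590, nearest to Zfp825. Besides the Snhg14 site, named distant peaks lay in the long noncoding RNA genes AU019990 (fold enrichment 5.20) and A930011G23Rik (5.20), and others were nearest to E2f3, a cell cycle factor (4.98), and Pttg1, which encodes securin (4.98).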
